A study of Mus musculus with 2 samples.

Results

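Primary microcephaly is a congenital reduction of brain size, and most genes known to cause it when mutated encode proteins of the centrosome or the spindle pole. The 10 genes described here are *Aspm*, *Wdr62*, *Cdk5rap2*, *Cenpj*, *Mcph1*, *Stil*, *Cep135*, *Cep152*, *Cep63* and *Plk4*. They were taken by symbol from the primary microcephaly genes whose products act at the centrosome, as a list that is not complete (*Sass6*, for example, is described with other genes below) and that was drawn up with earlier results of these data known, though no measured value entered the rule. All 10 were present among the 24411 gene rows of the count files. Both libraries were RNA-seq libraries made after laser capture microdissection (LCM), in which a laser cuts chosen areas from a stained section. The tissue was fresh frozen mouse brain at embryonic day 16.5, cut as haematoxylin and eosin stained cryosections, and the pieces came from the cortex and from the subventricular zone (SVZ), a germinal layer along the lateral ventricle. Each area gave 1 library. No genetic change or treatment is named for either area, and the sources used here do not state the strain, the number of embryos or the number of sections per library. In the study, the libraries served as a reference for a spatial barcoding method used on the same areas.

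The centrosome consists of a pair of centrioles within a cloud of pericentriolar material that nucleates microtubules. Centrioles are copied once per cell cycle, by a pathway in which scaffold proteins place the kinase Plk4, Plk4 recruits Stil to start the cartwheel of the new centriole, and further proteins lengthen its wall. In the embryonic cortex the apical progenitors divide at the ventricle, where the centrosomes form the poles of the mitotic spindle and seat the primary cilium, and the neurons born from them migrate outwards and no longer divide.

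Gene reads numbered 51435667 in the SVZ library and 22050693 in that of the cortex, so a single read stood for 0.0194 CPM (reads of a gene scaled to a library total of 1000000) in the SVZ and for 0.0454 CPM in the cortex. Reads counted in one library or the other are called SVZ reads and cortex reads below. With a single library from each area no difference has a replicate check, and no test between the areas was made. All intervals below are exact 95% intervals for reads. They express counting error alone, since PCR copies were not told apart from separate molecules. As a check that the labels were not exchanged, all 6 apical progenitor markers (*Sox2*, *Hes5*, *Nes*, *Vim*, *Fabp7*, *Slc1a3*) were 4-fold or more above their cortex level in the SVZ. Apical progenitors divide at the ventricle, so their markers do not tell the SVZ from the layer lining the ventricle. All 6 neuron markers were higher in the cortex, but by 1.25-fold to 11.4-fold, and only 2 of them by 4-fold or more.

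The promoters were examined first, because genes that rise together in dividing cells often share short promoter sequences. Promoter windows from RefSeq (GRCm38.p6), from 250 bases before the transcription start to 50 bases after it, were given for 9 of the 10 genes, and *Mcph1* had no entry. Motifs of 3 kinds were searched on both strands. They were the cell cycle homology region (CHR, TTTGAA or TTCGAA), a site bound by cell cycle repressor and activator complexes, the CCAAT box (CCAAT), bound by the factor NF-Y, and E2F-like sites (TTCCCGC or TTGGCGC). Stretches from 120 bases before the start to 30 bases after it are printed for the 3 genes with the largest difference between the libraries, *Aspm* (chr1:139454653-139454802, plus strand), *Stil* (chr4:114999998-115000147, plus strand) and *Wdr62* (chr7:30280392-30280541, minus strand), and for the gene with the smallest, *Cenpj* (chr14:56571817-56571966, minus strand). Each reads 5′ to 3′ along the gene, and capitals mark the motifs, with ATTGG the CCAAT box read on the other strand.
Aspm: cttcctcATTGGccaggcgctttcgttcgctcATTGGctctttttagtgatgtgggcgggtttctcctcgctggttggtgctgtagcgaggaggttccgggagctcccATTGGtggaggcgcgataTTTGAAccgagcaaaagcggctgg
Stil: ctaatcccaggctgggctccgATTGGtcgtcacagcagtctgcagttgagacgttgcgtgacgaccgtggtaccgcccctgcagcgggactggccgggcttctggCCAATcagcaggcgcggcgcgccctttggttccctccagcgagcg
Wdr62: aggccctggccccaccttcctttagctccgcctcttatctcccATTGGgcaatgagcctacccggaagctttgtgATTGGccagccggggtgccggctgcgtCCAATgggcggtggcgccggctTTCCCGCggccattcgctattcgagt
Cenpj: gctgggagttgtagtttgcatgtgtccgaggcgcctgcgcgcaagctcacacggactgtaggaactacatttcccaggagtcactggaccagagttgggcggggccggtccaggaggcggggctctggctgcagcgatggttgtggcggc

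The *Aspm* window held 3 CCAAT boxes, all on the opposite strand, with first bases at positions -113, -88 and -12 from the start, and a CHR element at position 7. The *Stil* window also held 3 CCAAT boxes, at -241, -99 and -15, and an E2F-like site at 44. *Wdr62* had 3 CCAAT boxes as well, at -77, -45 and -18, and an E2F-like site at 5. The 300-base windows of *Cenpj* and *Cep63* held none of the motifs. The *Cenpj* window (chr14:56571797-56572096) lay at a RefSeq start inside the annotated gene span, whose 5′ end is at 56575425. The *Cep63* window (chr9:102626075-102626374) likewise lay inside the annotated gene span, whose 5′ end is at 102626534. Neither 5′ end was searched. The motifs did not sort the genes by their difference between the libraries, since *Cep152*, which differed less than 2-fold, had all 3 kinds, with CCAAT boxes at -212, -195 and -37, an E2F-like site at -174 and a CHR element at -151. *Plk4* had only an E2F-like site, *Cep135* only a CCAAT box and *Cdk5rap2* only a CHR element, at position 27. At least 1 CCAAT box was found in 5 of the 9 genes with an entry, beside 41.1% of the 27025 genes of the promoter table, a CHR element in 3, beside 21.7%, and an E2F-like site in 4, beside 7.79%. Among 17 genes of the G2 and M phases with an entry, 82.4% had a CHR element, 76.5% a CCAAT box and 23.5% an E2F-like site. Among 15 genes of the S phase with an entry the shares were 20.0%, 73.3% and 53.3%. A match of letters is a description and does not show that a factor binds there.

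All 10 genes had a higher level in the SVZ library than in the cortex library, but by very different amounts, from 1.57-fold for *Cenpj* to 405-fold for *Aspm*. A difference of 4-fold or more towards the SVZ was found for 5 of the 10 genes (*Aspm*, *Stil*, *Wdr62*, *Plk4* and *Cep135*), and for 10.2% of all 12738 genes whose mean level reached 1 CPM. Towards the cortex it was found for 0 of the 10 genes and 7.01% of all genes. At a 2-fold limit, 6 of the 10 genes were higher in the SVZ (all genes 20.0%) and 0 in the cortex (all genes 15.6%), and the other 4 lay within 2-fold. The median log2 ratio of their CPM, SVZ over cortex, was 2.20, beside a median of 0.11 over all genes tested, of which 6990 were higher in the SVZ and 5748 in the cortex. Summed over the 10 genes the level was 419 CPM in the SVZ and 101 CPM in the cortex, a 4.13-fold difference. All 10 passed the minimum of 1 CPM, and *Aspm*, *Stil* and *Wdr62* passed it through the SVZ library alone. In pieces of whole tissue, fewer cells of a type and less RNA per cell cannot be told apart.

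**Figure D1:**
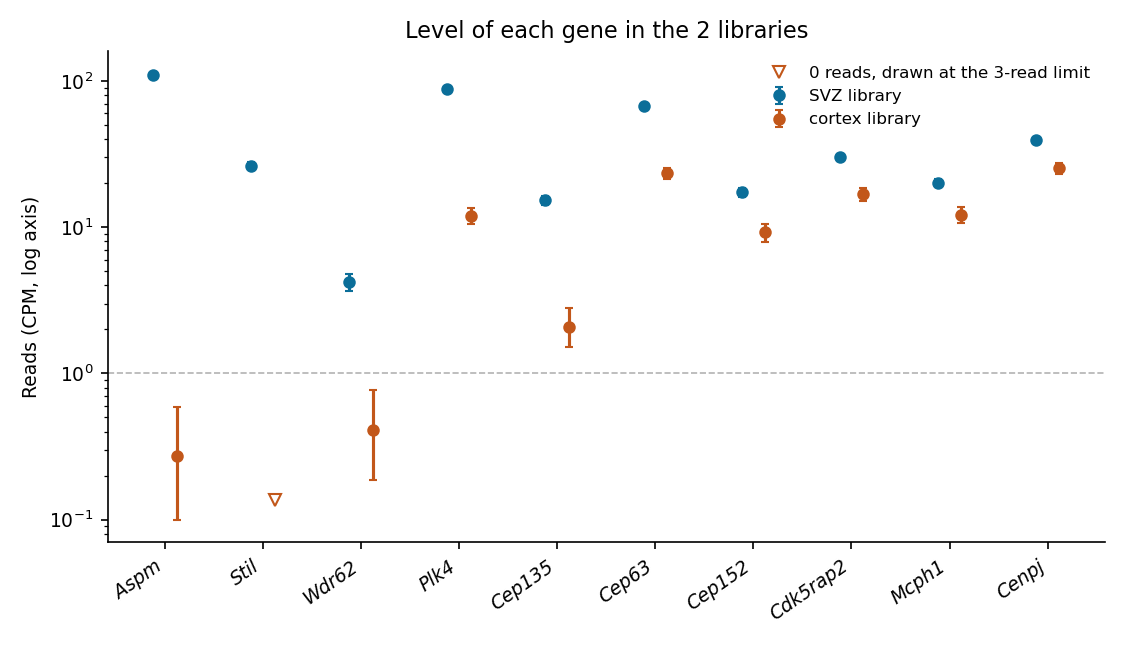
Level of each gene in the SVZ library (blue) and the cortex library (orange), in CPM on a log axis, with exact 95% Poisson intervals, genes ordered by their difference. *Stil*, with 0 reads in the cortex library, is drawn at the limit of 3 reads (0.136 CPM), the dashed line marks 1 CPM, and only *Aspm*, *Stil* and *Wdr62* fall under it in the cortex library.

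The spindle pole genes were compared first. *Aspm* (chr1:139454772-139494091, plus strand, 28 exons) encodes a protein that binds microtubule ends at the poles of the mitotic spindle. It had 5674 SVZ reads, or 110 CPM, and 6 cortex reads, or 0.272 CPM. The log2 ratio was 8.66 (interval 7.54 to 10.11), and 99.9% of all genes tested had a lower one. *Wdr62* (chr7:30240138-30280419, minus strand, 33 exons) encodes a spindle pole scaffold that works with Aspm. It was the gene with the fewest SVZ reads, 217 (4.22 CPM), against 9 cortex reads (0.408 CPM). Its level was 10.3-fold higher in the SVZ, a log2 ratio of 3.37 (interval 2.42 to 4.52). Since *Thap8*, a gene on the opposite strand, shares 264 bases of exon with *Wdr62* and the counting ignored strand, the strand columns were read too. *Wdr62* had 122 and 95 SVZ reads in these columns, and 9 and 1 cortex reads. Over all genes the columns held near equal shares of the reads of either library. They therefore cannot tell *Wdr62* from *Thap8*, and the origin of reads on the shared bases was not tested. The difference of the *Aspm* log2 ratio from that of *Wdr62* was 5.29 (interval 3.62 to 7.07), so these partners at the spindle pole differed by unlike amounts.

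Among the genes of centriole duplication, *Stil* and *Plk4*, which start the process, were examined next. *Stil* (chr4:115000159-115043196, plus strand, 18 exons) had 1352 SVZ reads (26.3 CPM) and 0 cortex reads. A level of 0.136 CPM (3 reads) was taken as the limit, while the exact interval of 0 reads reached 0.167 CPM. Against that limit of 3 reads the SVZ level was 193-fold higher, and the exact interval of the ratio began lower, at 157-fold. It was the only one of the 10 genes with no read in a library. *Plk4* (chr3:40800019-40816883, plus strand, 16 exons), the kinase that triggers centriole duplication, had 4543 SVZ reads (88.3 CPM) and 264 cortex reads (12.0 CPM). Its SVZ level was 7.38-fold the cortex level (interval 6.52 to 8.38), a log2 ratio of 2.88. The kinase therefore kept 13.6% of its SVZ level in the cortex library, while its partner *Stil*, taken at the limit of 3 reads, was at 0.518%. The log2 ratio of *Stil* exceeded that of *Plk4* by at least 4.40, the lower end of the interval of their difference.

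*Cep63* and *Cep152* encode the ring around the mother centriole to which Plk4 is recruited. *Cep63* (chr9:102584588-102626534, minus strand, 12 exons) had 3472 SVZ reads (67.5 CPM) and 516 cortex reads (23.4 CPM). Its log2 ratio was 1.53 (interval 1.39 to 1.66), or 2.88-fold. *Cep152* (chr2:125563088-125625113, minus strand, 28 exons) had 889 SVZ reads (17.3 CPM) and 203 cortex reads (9.21 CPM), a log2 ratio of 0.91 (interval 0.69 to 1.14). The ring partners thus differed from each other by 0.62 on the log2 scale (interval 0.35 to 0.88), and both lay below *Plk4*, whose product they place, *Cep63* by 1.35 (interval 1.13 to 1.58) and *Cep152* by 1.97 (interval 1.68 to 2.26). *Anapc13*, on the opposite strand, shares 239 bases of exon with *Cep63*. Counting each strand apart added 101 SVZ reads and 7 cortex reads to *Cep63*.

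The remaining genes of this group build the centriole itself. *Cep135* (chr5:76588698-76646466, plus strand, 24 exons), whose product links the cartwheel to the centriole wall, had 786 SVZ reads (15.3 CPM) and 46 cortex reads (2.09 CPM). It was 7.33-fold higher in the SVZ, a log2 ratio of 2.87 (interval 2.44 to 3.33), a difference of 0.01 from *Plk4* (interval -0.49 to 0.48). *Cenpj* (chr14:56526761-56575425, minus strand, 18 exons), also called CPAP, controls the length of the centriole wall. It had 2031 SVZ reads (39.5 CPM) and 556 cortex reads (25.2 CPM), and its log2 ratio of 0.65 (interval 0.51 to 0.79) was the lowest of the 10 genes. The 6 genes of centriole duplication summed to 254 CPM in the SVZ and 71.9 CPM in the cortex, or 3.54-fold. Of the 6, 3 passed 4-fold (all genes 10.2%).

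The other 2 genes have roles of their own. *Cdk5rap2* (chr4:70216856-70410443, minus strand, 37 exons) encodes a pericentriolar protein that recruits γ-tubulin complexes. It had 1543 SVZ reads (30.0 CPM) and 370 cortex reads (16.8 CPM), a log2 ratio of 0.84 (interval 0.67 to 1.01). The pseudogene *Ywhaq-ps3* lies on the same strand and shares 365 bases of exon with it, and reads there may not have been counted for either gene. *Mcph1* (chr8:18595131-18803189, plus strand, 14 exons), which holds back chromosome condensation before mitosis and acts in the DNA damage response, had 1027 SVZ reads (20.0 CPM) and 268 cortex reads (12.2 CPM). Its log2 ratio was 0.72 (interval 0.52 to 0.92). The antisense gene *Gm16725* shares 190 bases of exon with *Mcph1*.

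**Figure D2:**
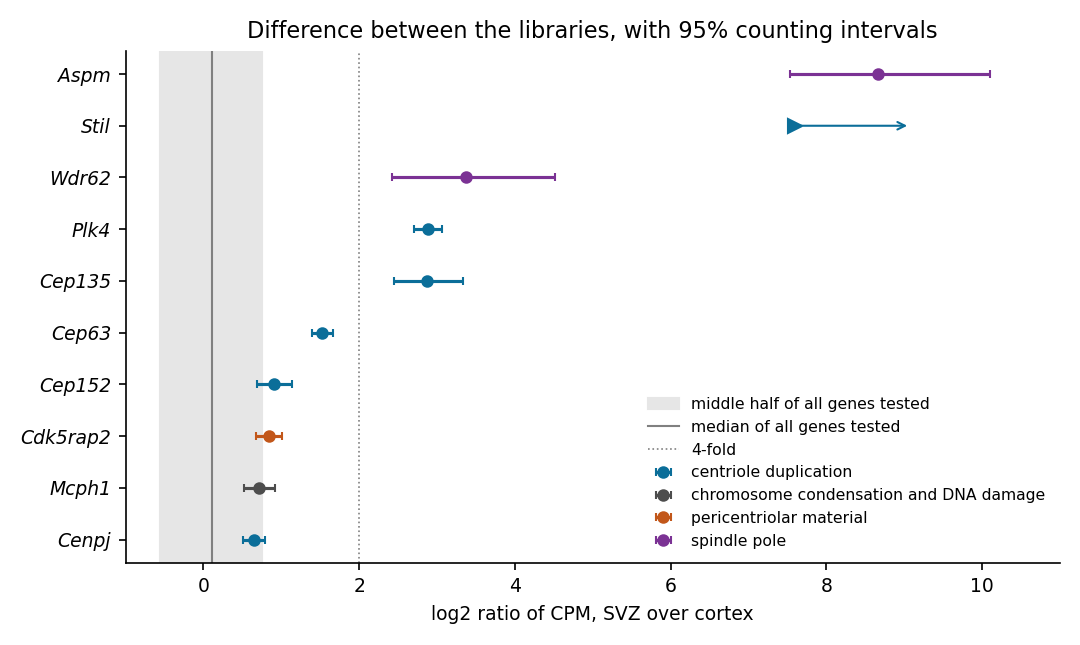
Log2 ratio of CPM, SVZ over cortex, for each gene, coloured by role, with exact 95% counting intervals and, for *Stil*, an arrow from the ratio with 3 cortex reads assumed. The grey band spans the quartiles of all genes tested (-0.56 to 0.76), the dotted line marks 4-fold, and *Mcph1* and *Cenpj* are the 2 genes whose ratio lies inside the band.

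Differences between the genes were then compared in all 45 pairs, for which the scaling of the libraries cancels. The interval excluded 0 in 35 pairs. The 10 pairs in which it did not fell within 3 sets. *Aspm* and *Stil* made up the first, since the *Stil* ratio has no upper limit. *Wdr62*, *Plk4* and *Cep135* made up the second, in which *Wdr62* exceeded *Plk4* by 0.49 with a wide interval of -0.49 to 1.65. *Cep152*, *Cdk5rap2*, *Mcph1* and *Cenpj* made up the third, and their widest gap, between *Cep152* and *Cenpj*, was 0.26 (interval -0.0008 to 0.53). *Cep63* was separated from all the others. Genes of one role stood in different sets, and centriole duplication genes were found in all 3. These sets were read from the values and were not tested further.

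Levels were compared between genes as CPM per kilobase of the longest annotated transcript. In the SVZ library *Plk4* was highest, at 25.4 CPM per kilobase (interval 24.7 to 26.1), followed by *Cep63* at 11.5 and *Aspm* at 11.2, whose intervals overlapped. *Cenpj* stood at 8.30, *Stil* at 4.90 and *Mcph1* at 4.28. *Cep152* at 3.00, *Cep135* at 2.71 and *Cdk5rap2* at 2.53 came next, each with an interval that overlapped that of its neighbour, and *Wdr62* was lowest at 0.885. In the cortex library the order began with *Cenpj* at 5.30 CPM per kilobase (interval 4.87 to 5.76), ahead of *Cep63* at 3.99 and *Plk4* at 3.44, whose intervals overlapped, and *Mcph1* at 2.61. *Cep152* at 1.60 and *Cdk5rap2* at 1.42 could not be ordered by their intervals, and *Cep135* followed at 0.371. *Wdr62* at 0.0856, *Aspm* at 0.0276 and *Stil* at 0 ended the list, with overlapping intervals between neighbours. *Aspm* thus stood 3rd of the 10 genes in the SVZ library and 9th in the cortex library, while *Cenpj* stood 4th and 1st. With the length of all exons merged in place of the longest transcript, *Plk4* (12.9 CPM per kilobase) was still highest in the SVZ library and *Cenpj* (5.17) in the cortex library, but *Cep63* moved from 2nd to 4th in the SVZ library.

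**Figure D3:**
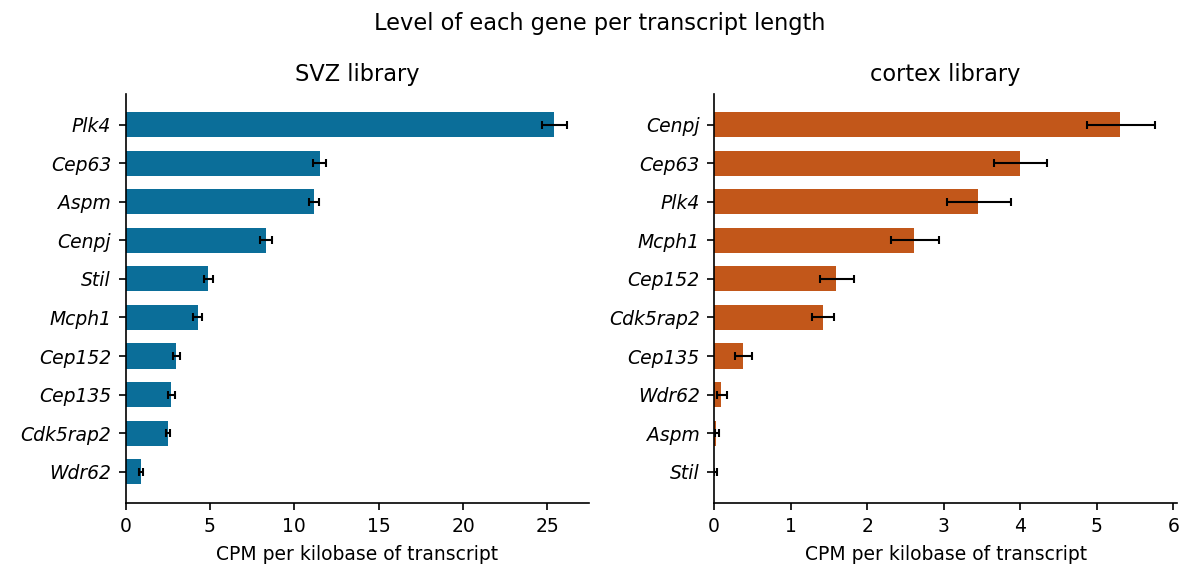
Level of each gene per kilobase of its longest transcript in the SVZ library (left) and the cortex library (right), on separate axes that start at 0, with exact 95% Poisson intervals. *Plk4* leads in the SVZ library at 25.4 CPM per kilobase and *Cenpj* in the cortex library at 5.30.

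The 10 genes were set beside the cell cycle genes, because the SVZ holds dividing cells. All 20 genes of the G2 and M phases were at least 4-fold higher in the SVZ (all genes 10.2%). Their log2 ratios ran from 4.56 (*Nuf2*, of the kinetochore) to 6.35 (*Birc5*, of the chromosomal passenger complex), with a median of 5.67. *Mki67*, the proliferation marker, had 13865 and 124 reads (log2 ratio 5.58), and *Top2a*, the mitotic topoisomerase, 26475 and 141 reads (6.33). In the unstranded counts, without a pseudocount, *Aspm* and *Stil* (3 cortex reads assumed) lay above all 20 of these genes. The other 8 microcephaly genes lay below all 20. With the stranded columns summed, 19 of the 20 were at least 4-fold higher. Not all of them then lay above *Wdr62*, *Plk4* and *Cep135*, which were at 3.21, 2.88 and 2.87. Of 20 S phase genes, 15 were at least 4-fold higher in the SVZ (all genes 10.2%). Their median was 3.15, with a range from 0.97 (*Mcm7*, a subunit of the replicative helicase) to 5.54 (*Cdc6*, which loads it). *Wdr62* lay above 12 of the 20, *Plk4* and *Cep135* above 8 and *Cep63* above 2. *Cep152*, *Cdk5rap2*, *Mcph1* and *Cenpj* lay below all of them. Put as levels, the cortex library held 2.02% of the SVZ level of the G2 and M phase genes, summed, and the highest gene of that list was at 4.25%. *Cep152* was at 53.3%, *Cdk5rap2* at 55.9%, *Mcph1* at 60.9% and *Cenpj* at 63.9%.

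**Figure D4:**
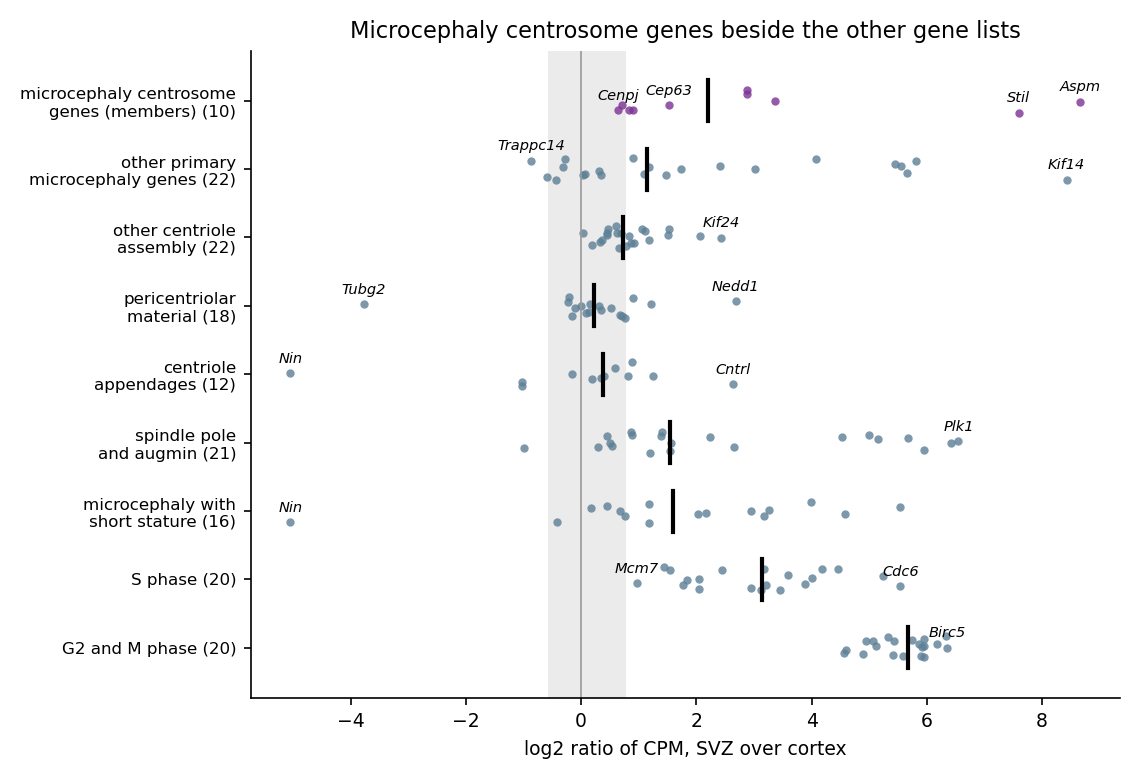
Log2 ratio of CPM, SVZ over cortex, for the 10 genes (purple) and the genes of 8 other lists (grey blue), 1 point per gene with the number of genes in brackets, black bars the medians and the grey band the quartiles of all genes tested. The 10 genes spread from 0.65 to 8.66, while the G2 and M phase genes lie between 4.56 and 6.35, and *Stil* is drawn at 7.59, its ratio with 3 cortex reads assumed.

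Other centrosome genes were compared list by list. All 22 other genes of centriole assembly were higher in the SVZ library as scaled here, but the lowest, *Cntrob* at 0.03, fell below 0 under other scalings, and *Kif24* (2.44) and *Cntln* (2.06) were at least 4-fold higher. That count of 2 of 22, where 10.2% of all genes were as much higher, became 1 under TMM, upper-quartile and DESeq2 scaling, with a pseudocount of 1 CPM or a minimum of 10 CPM, and 0 where the whole interval had to pass 4-fold. Their median log2 ratio was 0.74. *Sass6*, the cartwheel protein that Stil binds, had 2159 SVZ and 407 cortex reads, a log2 ratio of 1.19 (interval 1.03 to 1.34), below *Stil* and *Plk4*. *Cep192*, the other scaffold that recruits Plk4, had 2000 SVZ and 300 cortex reads. Its log2 ratio of 1.52 (interval 1.34 to 1.69) overlapped that of *Cep63* (1.53, interval 1.39 to 1.66) in its interval. It was above that of *Cep152* (0.91). Among 18 other pericentriolar genes the median was 0.23, and 12 were higher in the SVZ and 6 in the cortex. In each direction 1 was at least 4-fold higher (all genes 10.2% towards the SVZ and 7.01% towards the cortex). *Nedd1*, which brings γ-tubulin to the spindle, was highest at 2.68. *Tubg1*, the main γ-tubulin gene, had 5533 and 1479 reads (0.68), *Pcnt*, pericentrin, 2372 and 597 reads (0.77), and *Pcm1*, of the centriolar satellites, 10677 and 3695 reads (0.31), so *Cdk5rap2* at 0.84 lay close to *Pcnt* and *Tubg1*. *Tubg2*, the second γ-tubulin gene, was 13.7-fold higher in the cortex, with 195 SVZ and 1144 cortex reads (log2 ratio -3.77). Reads of *Tubg1* and *Tubg2*, which are close copies, may have been lost where they map to both.

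The 12 genes of centriole appendages had a median log2 ratio of 0.37, with 8 higher in the SVZ and 4 in the cortex. *Cntrl*, centriolin, had 4302 SVZ and 297 cortex reads, a log2 ratio of 2.63. *Nin*, ninein, which anchors microtubules at the appendages of the mother centriole and is itself a gene of microcephaly with short stature, stood at the other end with 475 SVZ reads (9.23 CPM) and 6728 cortex reads (305 CPM). It was 33.0-fold higher in the cortex, a log2 ratio of -5.05 (interval -5.18 to -4.91), the opposite direction to all 10 primary microcephaly genes, and the summed strand columns gave the same 475 and 6728 reads. Spindle pole and augmin genes had a median of 1.54, and 9 of 21 were at least 4-fold higher in the SVZ (all genes 10.2%). *Plk1*, the mitotic kinase of the spindle poles, was highest with 3929 and 18 reads (6.55), and *Tpx2*, which activates Aurora A on the spindle, had 13410 and 112 reads (5.68).

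The other primary microcephaly genes, most of which act outside the centriole pathway and one of which is *Sass6*, also spread widely, with log2 ratios from -0.87 to 8.43. Of these 22 genes, 8 were at least 4-fold higher in the SVZ (all genes 10.2%) and 0 in the cortex library (all genes 7.01%). Their median log2 ratio was 1.14. The count of 8 became 5 of 19 where the mean had to reach 10 CPM, and 2 of the 22 were under 1 CPM in the cortex library. *Kif14*, a kinesin of cytokinesis, had 802 SVZ and 1 cortex reads, a log2 ratio of 8.43 with an interval of 5.94 to 13.73. *Ncaph*, of condensin, had 5531 and 42 reads (5.82), *Cenpe*, a kinetochore motor, 9717 and 83 reads (5.65), and *Knl1*, a kinetochore scaffold listed under its older symbol *Casc5*, 5371 and 49 reads (5.55). *Cit*, citron kinase of the midbody, had 797 and 42 reads (3.02), close to *Plk4* and *Cep135*. At the low end stood *Phc1*, a Polycomb protein (-0.43), *Wdfy3*, of selective autophagy (-0.59), and *Trappc14*, of ciliary vesicle transport and listed as *BC037034* (-0.87). For microcephaly with short stature, 8 of 16 genes were at least 4-fold higher in the SVZ (all genes 10.2%). In the cortex library 1, *Nin*, was so (all genes 7.01%), and the median was 1.60. *Cdc6* (5.54) was highest, followed by the replication licensing genes *Gmnn* (4.58) and *Cdt1* (3.99).

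Over all 145 genes of the 8 lists, each counted once, 61 were at least 4-fold higher in the SVZ (all genes 10.2%). Another 2, *Nin* and *Tubg2*, were so in the cortex library (all genes 7.01%), and the median log2 ratio was 1.38. Among the 61 were 20 genes of the G2 and M phases and 15 of the S phase.

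Genes with levels like those of the microcephaly genes were named as the nearest by Euclidean distance in log2 CPM over both libraries, among 14240 genes with a read in each. With only 2 libraries, such likeness means similar levels and no more. The nearest to *Plk4* was *Msn* (4534 and 255 reads, distance 0.0501), to *Cep135* *Wipi1* (775 and 47 reads, 0.0371), to *Wdr62* *Clec14a* (216 and 9 reads, 0.0067) and to *Cdk5rap2* *Xrcc1* (1541 and 372 reads, 0.0080). *Cep63* was nearest to *Epb4.1l5*, *Cep152* to *2900076A07Rik*, *Cenpj* to *Inpp5b* and *Mcph1* to *Piga*, all at distances of at most 0.0746. *Aspm* had no close neighbour, and the nearest was *Nr2e1*, a neural stem cell receptor, at a distance of 0.645 with 6849 and 4 reads. *Stil* was left out, since it had no read in the cortex library.

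Markers of several cell types differed between the libraries too. The 6 apical progenitor markers summed to 6239 CPM in the SVZ and 120 CPM in the cortex, and the 3 intermediate progenitor markers to 553 and 26.1 CPM. The 6 neuron markers summed to 1397 and 4799 CPM. All 5 microglia markers were higher in the SVZ library (33.8 and 4.13 CPM, none at 0), as were the choroid plexus genes *Ttr* and *Folr1* (243 and 0.726 CPM with *Kl*, which was at 0 in both, and *Folr1* at 0 in the cortex library). Endothelium markers were divided, with 2 of 5 higher in the SVZ library (64.4 and 55.6 CPM). All 3 meninges genes that reached a mean of 1 CPM were higher in the cortex library (2.12 and 7.35 CPM, *Col1a1* at 0 in the SVZ library). The part of these cell types in the levels of the microcephaly genes was not tested. The SVZ library was also 2.33 times as deep as the cortex library, and 5 of the 10 genes remained at least 4-fold higher after it was thinned to the cortex total. Thinning leaves the cortex counts, and on average the ratios, unchanged, so this count cannot show whether depth mattered.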

How the data were processed

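LCM RNA-seq libraries of the SVZ and the cortex of mouse brain at embryonic day 16.5 were analysed, 1 from each area, grouped by the sample labels. Per the study's methods, the authors trimmed reads with cutadapt 4.1 and aligned the first read of each pair to mm10 with STAR 2.7.9a, which wrote the deposited counts, whole reads per gene, not normalized, without strand and for each strand. Reads that map to several places or to more than 1 gene were not counted, so copies and overlapping genes may be undercounted. The sources used here give neither molecular identifiers nor a removal of duplicates. A merged table of the authors with counts, normalized values, fold changes and their log10 was not used.

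Here the 4 STAR summary lines (40.9% to 41.0% of all reads) were left out, and CPM was computed from the unstranded counts on the total of gene reads. Log2 ratios were taken without a pseudocount. For a gene without reads in a library, 3 reads were assumed as the limit, and pairs of counts that were both at most 3 got no ratio. Ratios had exact 95% Clopper-Pearson intervals, levels exact Poisson intervals, and differences between genes the exact conditional interval of the odds ratio. Genes whose mean reached 1 CPM were set against a 4-fold limit. GENCODE M21 (GRCm38) gave positions and lengths by gene symbol. The microcephaly genes and the lists were chosen with earlier results of these data known. Genes named were these 10, 12 further genes chosen by name (*Pcnt*, *Sass6*, *Knl1*, *Cenpe*, *Cit*, *Cep192*, *Tubg1*, *Pcm1*, *Nin*, *Tpx2*, *Mki67*, *Top2a*), members of each list's 3 highest and 3 lowest ratios, and nearest genes by level. Some list genes are not reported here. Alternatives were size factors of DESeq2 1.42.0, edgeR 4.0.16 scaling (TMM, upper-quartile), totals that leave out the 10 most counted genes, summed stranded counts, thinning of the SVZ library, a pseudocount of 1 CPM, other minimums, folds and lengths. The procedures were tested on simulated data. The work used R 4.3.3 and Python 3.11.15 with scipy 1.17.1, numpy 2.4.6, matplotlib 3.10.9 and pandas 2.3.3.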

Additional observations from a re-analysis of the deposited data

Results flagged for a closer look

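*Cep63* carried reads outside the main measurement. The strand columns held 101 reads more than the unstranded count in the SVZ library and 7 more in the cortex library. Its log2 ratio stayed within its counting interval with those reads added. Their origin was not tested, and the strand columns, with near equal shares of reads in both libraries, cannot tell *Cep63* from the overlapping *Anapc13*.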

How the results depend on the processing

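No paired analysis was possible because the SVZ and the cortex are represented by 1 library each, which also means that no replicate could be left out. All 10 genes were higher in the SVZ library under every alternative run, with 0 of 70 recomputed ratios reversed and 66 within their counting interval. The other 4 moved with a pseudocount of 1 CPM, to 6.45 for *Aspm*, 4.77 for *Stil*, 2.40 for *Cep135* and 1.89 for *Wdr62*, and this lowered the median of the 10 genes from 2.20 to 1.69, since it pulls ratios of low counts towards 0. The count of 5 genes at least 4-fold higher became 3 of 8 where the mean had to reach 10 CPM, which drops *Wdr62* and *Cep135*, and 3 at an 8-fold limit. It was 4 with the pseudocount and 5 under every other scaling, with stranded counts and with thinning. Upper-quartile scaling moved the median of all genes by -0.10 on the log2 scale, and the median of the 10 genes exceeded that of all genes by 2.09 both with it and as reported. *Cntrob*, *Copb2*, *Zfp335* and *Tubgcp2* turned negative under TMM, upper-quartile and DESeq2 scaling. Under the same scalings the count at least 4-fold higher fell from 15 to 13 for the S phase list. For microcephaly with short stature it fell from 8 to 7, also with thinning and with the pseudocount. For all 145 list genes it fell from 61 to 57, and to 56 where the whole interval had to pass 4-fold. The count for the G2 and M phase list was 19 of 20 with stranded counts. The interval of the difference excluded 0 in 35 pairs with stranded counts and with thinning, both added after the data were seen. With merged exon lengths, 6 of 9 neighbours in the SVZ order and 8 of 9 in the cortex order kept their order. Depth limits *Aspm*, *Stil* and *Wdr62* in the cortex library, where they had at most 9 reads.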
